A study of Mus musculus with 35 samples.

Results

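Pax7, Myf5, Myod1, Myog, Myf6, Mymk, Myh3, Myh8, Chrna1 and Ncam1 were followed across all 9 groups of a time course of radiation dermatitis in mouse skin. These 10 genes were taken by symbol from a table of 36106 genes, and all 10 were found there. They mark muscle stem cells, the commitment and differentiation of myoblasts, newly formed fibres, and fibres that have lost their nerve, and they were read to ask whether skin with little mature muscle RNA held signs of muscle regeneration or only less muscle. RNA had been sequenced in bulk from 35 pieces of skin taken from 19 mice, females of the inbred strain C57BL/6J with no engineered allele that were 10 weeks old at the start, when they were divided into groups. Radiated skin came from the left flank, which had received 25 Gy at 3.6 Gy per min over 420 seconds and was then shaved. Control skin carries the same week and number in its label as a radiated sample, so that each such pair was taken to be 1 mouse, and the place on the body from which it was cut is not stated. There were 4 radiated and 4 control samples at each of weeks 1, 2, 3 and 4, and 3 samples of sham mice without radiation, whose week is not stated. Samples of different weeks are therefore samples of different mice.

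Skeletal muscle regenerates from satellite cells, stem cells that lie along the fibre and are kept by the transcription factor Pax7. After injury they divide as myoblasts that switch on Myf5 and Myod1, then Myog as they differentiate, fuse with the help of Mymk (myomaker), and build fibres that for a time carry the embryonic and perinatal myosins Myh3 and Myh8. Myf6 (Mrf4) is the member of the same factor family that persists in mature fibres. Chrna1, the alpha subunit of the muscle acetylcholine receptor, and the adhesion molecule Ncam1 spread over a fibre when it is young or denervated. Mouse skin holds a thin sheet of striated muscle under the dermis, the panniculus carnosus. In bulk RNA, fewer muscle cells and less RNA per muscle cell cannot be told apart.

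Of the members with a promoter in the RefSeq table, Myog, Chrna1 and Myh3 had their highest group mean in radiated skin of week 3 or 4. The 250 bases before their transcription starts are shown because Myf5, Myod1, Myog and Myf6 bind the short motif known as the E-box, CANNTG. The sequences are from RefSeq on GRCm38.p6, run 5′ to 3′ on the strand of the gene, and carry every match of CANNTG in capitals.
Myog, chr1:134289754-134290003, plus strand: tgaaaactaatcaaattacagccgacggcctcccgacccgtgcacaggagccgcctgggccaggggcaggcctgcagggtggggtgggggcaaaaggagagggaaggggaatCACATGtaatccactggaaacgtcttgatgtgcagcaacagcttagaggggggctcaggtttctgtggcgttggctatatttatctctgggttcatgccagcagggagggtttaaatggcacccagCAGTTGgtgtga
Chrna1, chr2:73580339-73580588, minus strand: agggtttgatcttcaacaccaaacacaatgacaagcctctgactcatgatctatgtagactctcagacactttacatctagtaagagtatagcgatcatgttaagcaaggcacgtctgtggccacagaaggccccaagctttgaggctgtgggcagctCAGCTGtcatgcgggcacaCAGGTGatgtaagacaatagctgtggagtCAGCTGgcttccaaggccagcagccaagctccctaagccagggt
Myh3, chr11:67078050-67078299, plus strand: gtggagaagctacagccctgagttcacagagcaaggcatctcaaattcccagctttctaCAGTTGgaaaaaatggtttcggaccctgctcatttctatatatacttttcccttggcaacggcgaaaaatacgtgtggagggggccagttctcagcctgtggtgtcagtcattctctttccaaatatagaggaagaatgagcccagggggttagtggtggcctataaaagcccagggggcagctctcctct
The Myog stretch held 2 matches, which began at bases -138 and -12 counted from the start, where -1 is the last base before it. The Chrna1 stretch held 3, at -92, -73 and -44, and those at -92 and -44 read CAGCTG. The Myh3 stretch held 1, at -191. CANNTG reads the same on both strands in its fixed bases, both strands were searched, and CAGCTG is 1 of the words it covers. Of 32851 promoter stretches of this length, 66.2% held CANNTG and 13.0% held CAGCTG, so a match of the first kind is common. The table held promoters of 6 members, and in the other 3 of them, Pax7 and Myf5 had 0 matches and Myh8 had 1.

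Total counts ran from 17362725 to 28487795 per sample, and a gene at 3 counts, the floor used here, stood at 0.114 to 0.175 CPM (counts relative to the scaled library size, the unit used below). No sequencing batch or date is given in the labels. Mature muscle was measured by 30 genes of contractile and metabolic fibre proteins, none of them among the 10 members, and the muscle score of a sample is their mean log2 CPM. Their share of all counts averaged 4.68% in sham skin, 9.01%, 10.9%, 8.71% and 3.99% in control skin of weeks 1 to 4, and 5.11%, 6.20%, 2.86% and 1.76% in radiated skin of the same weeks. Replicate 1 of the week 4 control skin stood apart, with a share of 0.631% and a score of 5.88 against 8.48 to 9.47 in the other 3. The radiated-minus-control difference in mean score was -1.04 in week 1, -0.91 in week 2 and -2.05 in week 3, each with groups that did not overlap (two-sided exact permutation test, p = 0.0286, the smallest that 70 regroupings allow, and adjusted p = 0.0381 over the 4 weeks). In week 4 the difference was -1.26 (exact permutation p = 0.2), and without that control sample it was -2.02 (exact permutation p = 0.0286). The mitochondrial share of counts was also lower in radiated skin, at 1.38% to 1.80% against 1.85% to 2.68% in week 1, 1.62% to 2.10% against 2.30% to 2.98% in week 2, 1.04% to 1.31% against 2.24% to 4.14% in week 3 and 1.10% to 1.22% against 2.14% to 2.65% in week 4. Its part in the results below was not tested. Myh4, a fast myosin, ran from 8076 to 26232 CPM in control skin of weeks 1 to 3, from 1179 to 3824 CPM in radiated skin of week 3 and from 62.1 to 508.8 CPM in radiated skin of week 4, against 561 CPM in the control sample that stood apart. Ckm, the muscle creatine kinase, and Acta1, the skeletal actin, ran from 72.0 to 191.8 CPM and from 241.8 to 389.4 CPM in radiated skin of week 4, and stood at 81.8 and 93.6 CPM in that control sample.

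Among the genes of stem cells and early myoblasts, Pax7 fell in radiated skin of week 3, from 2.10 ± 0.523 to 0.564 ± 0.122 CPM, and Myod1 fell in week 4, from 3.49 ± 1.67 to 1.22 ± 0.227 CPM (SD, n = 4 each). Of the 4 members named above for young or denervated fibres, 3 rose in week 4 and Myh8 did not pass, at a log2 fold change of 0.01 (adjusted p = 0.97 in edgeR). The 3 were Myh3, from 0.0855 ± 0.0796 to 5.44 ± 7.84 CPM, Ncam1, from 27.2 ± 1.35 to 61.7 ± 30.1 CPM, and Chrna1, from 1.53 ± 0.308 to 4.48 ± 0.732 CPM. In 3 of the 4 radiated samples of week 3, Myog stood above all control samples of that week, but it did not pass the test. In edgeR's quasi-likelihood test, with an adjusted p under 0.05 as the threshold, 0 of the 8 members that passed the filter on low counts differed between radiated and control skin in week 1, where 0% of 17578 genes did. In week 2 it was 0 of 7 members, against 0.00577% of 17345 genes. At an unadjusted p under 0.05 the member counts were 1 and 2, where 14.1% and 13.8% of genes were at that level. The Wald test of DESeq2 called 1 member, Myf6, in each of these weeks, where it called 1.66% and 2.81% of genes. In week 3, 2 of 7 members were called, both lower, where 27.2% of 17653 genes were called, 13.6% higher and 13.6% lower. With total-count scaling the split of all genes in that week was 4054 higher and 1270 lower. In week 4, 4 of 8 members were called, 3 higher and 1 lower, where 48.4% of 17850 genes were called, 24.2% higher and 24.2% lower. Myh3, which was not among the 7 members tested in week 3, passed the filter of week 4 only through its radiated samples, so this count and its total depend on the group in which it was high. The shares of called members stood near those of all genes. The plot of levels by group shows all 10 members with each sample as a point.

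**Figure D1:**
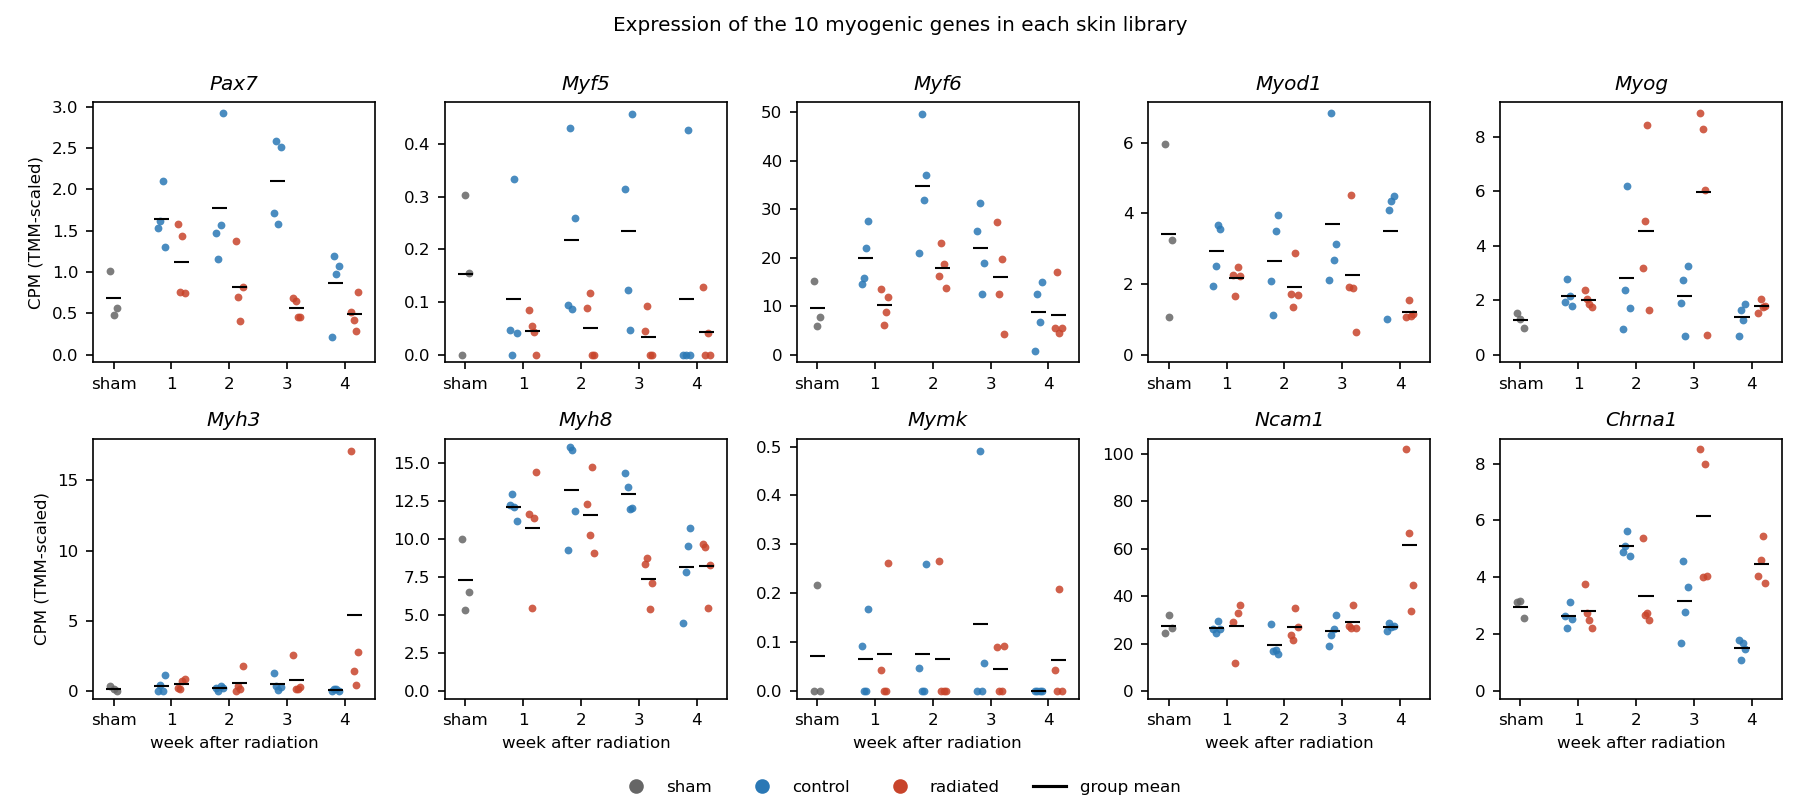
Levels of the 10 members in CPM (vertical axis, linear, scaled for each gene) in sham skin and in control and radiated skin by week after radiation. Each point is 1 sample and each black bar is a group mean. Myf5 and Mymk stay under 0.5 CPM throughout, and the week 4 radiated samples of Chrna1, Ncam1 and Myh3 lie above all control samples of that week.

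Per kilobase of exon, the order in sham skin was Myf6 with 7.66 CPM per kb, Ncam1 with 3.19, Myod1 with 1.84, Myog with 0.853, Chrna1 with 0.675, Myh8 with 0.619, Pax7 with 0.117, Myf5 with 0.0733, Mymk with 0.0478 and Myh3 with 0.029. Myf6 (ENSMUSG00000035923, chromosome 10, 107492853 to 107494737, GRCm38), the factor of mature fibres, thus led the family. The 3 sham samples of each neighbour overlapped from Ncam1 down to Myh8, and again from Pax7 down to Myh3. Myf6 lay above Ncam1, and Pax7 below Myh8, without overlap.

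Pax7 (ENSMUSG00000028736, chromosome 4, 139737062 to 139833528), the satellite cell factor, was low everywhere, with 4 to 63 counts per sample. In week 3 it stood at 1.71, 2.58, 1.58 and 2.51 CPM in control skin and at 0.686, 0.653, 0.457 and 0.46 CPM in radiated skin. All 4 radiated samples lay below all 4 control samples, and the log2 fold change was -1.86 (edgeR SE 0.341, adjusted p = 0.00486). In week 4 control skin held 0.212, 1.19, 0.982 and 1.08 CPM and radiated skin 0.512, 0.427, 0.293 and 0.758 CPM. The groups overlapped there through control replicate 1 alone, the sample poor in mature muscle, and the log2 fold change was -0.81 (edgeR SE 0.501, adjusted p = 0.21). Without that sample it was -1.09 (adjusted p = 0.0428 in edgeR). In weeks 1 and 2 the log2 fold changes were -0.52 and -1.10 (adjusted p = 0.523 and 0.315 in edgeR), and radiated skin was lower in 3 and 4 of 4 pairs.

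The Pax7 level of sham skin, 1.02, 0.477 and 0.568 CPM, lay below every control sample of weeks 1, 2 and 3. Against sham skin, control skin of week 3 was higher, with a log2 fold change of 1.59 (edgeR SE 0.417, adjusted p = 0.0438). The difference between radiated skin of week 3 and sham skin was -0.24 (adjusted p = 0.759 in edgeR), with overlapping samples. The control arm of the week 3 comparison thus stood above sham skin itself. Mature muscle moved along with it, since the muscle score of control skin in week 3 ran from 9.26 to 10.19 and that of sham skin from 7.94 to 9.23.

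Myf5, which shares the first steps of commitment with Myod1, had at most 10 counts in any sample and its highest level was 0.457 CPM. Mymk, the membrane protein that makes myoblasts fuse, had at most 12 counts, its highest level was 0.491 CPM, and all 4 control samples of week 4 were at 0. Neither passed the filter in any comparison, so neither was tested in the fits that used it. Myf5 was lower in radiated skin in 4 of 4 pairs in weeks 2 and 3, with overlapping samples at these low counts. Of 2 further genes, the fusion peptide Mymx had at most 5 counts and was at 0 in 32 of 35 samples. The other, Calcr, which marks resting satellite cells, had at most 16 counts, in radiated skin of week 3. Myf5, Mymk and Mymx, the transcripts of commitment and fusion read here beside Myod1 and Myog, were thus at or near the floor in all groups.

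Myod1 (ENSMUSG00000009471, chromosome 7, 46376474 to 46379099), the determination factor, stood at 1.01, 4.11, 4.36 and 4.50 CPM in control skin of week 4 and at 1.07, 1.55, 1.09 and 1.16 CPM in radiated skin. The radiated samples were low and close together, and control replicate 1 lay below all of them. The log2 fold change was -1.52 (edgeR SE 0.417, adjusted p = 0.0133), and radiated skin was lower in 3 of 4 pairs. Without control replicate 1 it was -1.79 (adjusted p = 2.02e-04 in edgeR). Sham skin held 5.96, 1.08 and 3.25 CPM, and against it the week 4 change of -1.44 did not pass (adjusted p = 0.0634 in edgeR). In weeks 1, 2 and 3 the log2 fold changes from control to radiated skin were -0.43, -0.47 and -0.69, all with overlapping samples. Their adjusted p were 0.51, 0.661 and 0.385 in edgeR, and radiated skin was lower in 3, 3 and 4 of 4 pairs. Leaving out 1 sample gave ranges of -0.58 to -0.31, -0.75 to -0.23 and -1.28 to -0.21.

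Myog (ENSMUSG00000026459, chromosome 1, 134289989 to 134292548), which drives the differentiation of committed myoblasts, held 8.87, 8.30, 6.05 and 0.737 CPM in radiated skin of week 3 and 1.89, 2.74, 0.697 and 3.25 CPM in control skin. Its first 3 radiated samples lay above every control sample and replicate 4 lay near the lowest, so that the mean was 5.99 ± 3.71 CPM against 2.15 ± 1.12 CPM (SD, n = 4 each). The log2 fold change was 1.51 (SE 0.676) and did not pass, with an adjusted p of 0.123 in edgeR. Without radiated replicate 4, which also had the lowest muscle score of its group at 6.98, it was 1.88 (adjusted p = 0.0142 in edgeR). Leaving out other samples took it as low as 1.19, without control replicate 3, and the adjusted p as high as 0.243 in edgeR. Radiated skin of week 2 held 3.18, 4.91, 8.44 and 1.63 CPM, while control skin held 0.949, 2.37, 6.20 and 1.72 CPM. Sample 3 was the highest of both groups in that week, and the log2 fold change of 0.68 did not pass (adjusted p = 0.661 in edgeR). It was 0.19 without radiated replicate 3 and 1.43 without control replicate 3.

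Against sham skin, with 1.55, 1.30 and 0.981 CPM, Myog of radiated skin gave log2 fold changes of 1.83 in week 2 and 2.27 in week 3 (edgeR adjusted p = 0.0828 and 0.0614). In week 4 radiated skin held 1.54, 2.06, 1.76 and 1.78 CPM, and control skin held 0.688, 1.64, 1.28 and 1.88 CPM. The week 4 difference of 0.37 did not pass (adjusted p = 0.344 in edgeR).

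Myf6 varied with the amount of mature muscle RNA, closely in control skin and less tightly in radiated skin. Control skin held 14.7, 15.9, 21.9 and 27.5 CPM in week 1 and 21.0, 49.6, 31.8 and 37.1 CPM in week 2, and radiated skin held 13.5, 6.26, 8.91 and 12.0 CPM and 16.3, 23.0, 18.7 and 13.8 CPM. It was lower in radiated skin in 4 of 4 pairs in both weeks, with the groups apart in week 1 and overlapping in week 2. The log2 fold changes were both -0.97 (SE 0.277 and 0.262, adjusted p = 0.227 and 0.167 in edgeR). With the mouse as a block, the week 2 value was -0.93 (adjusted p = 0.0487 in edgeR), which made it the only member called in that week. In week 3 the groups overlapped widely, from 4.33 to 27.4 CPM in radiated and from 12.6 to 31.3 CPM in control skin. In week 4 radiated skin held 5.55, 17.2, 4.61 and 5.57 CPM and control skin 0.741, 12.6, 6.88 and 15.1 CPM, so that the sample poorest in mature muscle was also the lowest in Myf6. The log2 fold changes of these weeks were -0.43 and -0.10 (adjusted p = 0.535 and 0.914 in edgeR). Leaving out 1 sample gave ranges of -0.83 to -0.12 and -0.75 to 0.31. Sham skin held 15.2, 5.94 and 7.85 CPM, and control skin of week 2 exceeded it by 1.83 (edgeR SE 0.387, adjusted p = 0.0496).

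Myh3 (ENSMUSG00000020908, chromosome 11, 67078300 to 67102291), the embryonic myosin, was at or near the floor in most samples and rose in radiated skin of week 4. The counts there were 401, 37, 11 and 62, against 0, 3, 4 and 1 in control skin, which is 17.1, 1.44, 0.461 and 2.77 CPM against 0, 0.133, 0.171 and 0.0384 CPM. Every radiated sample lay above every control sample, and replicate 1 lay far above the other 3. The log2 fold change was 5.88 (edgeR SE 1.32, adjusted p = 0.00466), it was higher in 4 of 4 pairs, and without replicate 1 of the radiated skin it was 4.07 (adjusted p = 0.0169 in edgeR). Only the radiated samples brought Myh3 over the filter on low counts, and with no such filter the log2 fold change was 5.87 (adjusted p = 0.00303 in edgeR). At control counts this low, the size of the fitted change depends on the small count that edgeR adds, and the counts above are the firmer description.

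Sham skin held 8, 4 and 0 counts of Myh3, and radiated skin of week 4 was higher than sham skin by 4.90 (edgeR SE 1.44, adjusted p = 0.036). There too, only the radiated samples brought it over the filter, and with no filter the adjusted p was 0.0255 in edgeR. The comparison with the filter no longer passed without radiated replicate 1 or 4 or without any one of the sham samples, with adjusted p up to 0.101 in edgeR. In radiated skin of week 3 the counts were 57, 3, 5 and 6, and those of control skin in that week were 29, 9, 2 and 6. Single samples of other groups also stood out, with 33 counts in replicate 4 of radiated skin of week 2 and 27 in replicate 4 of control skin of week 1, while replicate 3 of radiated skin of week 4 had 11. Of the 31-base words of the Myh3 transcript, 11.1% also occur in transcripts of other genes, foremost Myh2, Myh8 and Myh13, and reads of those words were shared out by the estimate. Myh2 was the only gene of the 30 mature muscle genes that was higher in radiated skin of week 4, by 1.12 (edgeR SE 0.405, adjusted p = 0.0441), and without control replicate 1 of that week 0 of the 30 were higher. The part of Myh2 in the Myh3 counts was not tested.

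Myh8 (ENSMUSG00000055775, chromosome 11, 67277124 to 67308634), the perinatal myosin, did not share that rise. In week 3 control skin held 14.4, 13.4, 12.0 and 12.0 CPM and radiated skin 8.32, 8.72, 5.41 and 7.09 CPM. The groups were apart, and the log2 fold change was -0.78 (edgeR SE 0.197, adjusted p = 0.0173). It did not pass with total-count scaling, at -0.54 (adjusted p = 0.0943 in edgeR), or without control replicate 1, at -0.74 (adjusted p = 0.0527 in edgeR). In week 4 the radiated samples, 9.64, 9.46, 5.45 and 8.30 CPM, lay within the span of the control samples, 4.50, 7.83, 9.52 and 10.7 CPM, and the log2 fold change was 0.01 (adjusted p = 0.97 in edgeR). Of its 31-base words, 18.6% occur in other transcripts, foremost the adult myosins Myh2, Myh1 and Myh4, which are far more abundant here, so the level of Myh8 is less certain than that of the factors, none of whose words is shared.

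Chrna1 (ENSMUSG00000027107, chromosome 2, 73563215 to 73580338), the receptor subunit, had the smallest adjusted p of the members between radiated and control skin. Radiated skin of week 4 held 4.05, 4.62, 5.45 and 3.79 CPM and control skin 1.80, 1.11, 1.71 and 1.50 CPM. The lowest radiated sample was above the highest control sample by a wide margin, and the means were 4.48 ± 0.732 and 1.53 ± 0.308 CPM (SD, n = 4 each). The log2 fold change was 1.56 (edgeR SE 0.219, adjusted p = 3.0e-04), higher in 4 of 4 pairs. In week 3 radiated skin held 8.50, 4.01, 8.00 and 4.05 CPM and control skin 1.71, 4.59, 2.79 and 3.65 CPM, with overlap through the second control sample. The log2 fold change of 0.98 (SE 0.382) did not pass in that fit (adjusted p = 0.0849 in edgeR), but did in a single fit of all 35 samples (0.95, adjusted p = 0.00952 in edgeR) and with total-count scaling (1.20, adjusted p = 0.0297 in edgeR).

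In week 2 the order was the other way, with 4.89, 5.12, 5.63 and 4.74 CPM of Chrna1 in control skin and 5.39, 2.69, 2.75 and 2.51 CPM in radiated skin, and the log2 fold change of -0.61 did not pass (adjusted p = 0.382 in edgeR). In week 1 it was 0.10 (adjusted p = 0.882 in edgeR). The radiated-minus-control difference changed over the 4 weeks for Chrna1 (adjusted p = 0.00195 in edgeR's F test of the 3 interaction terms), the 1 member of 8 called there, where 15.6% of 19338 genes were. Without the 8 samples numbered 3 the adjusted p of Chrna1 was 0.0946 in edgeR (unadjusted p = 0.00889). In that fit 960 of 19334 genes were called, against 3013 of 19338 with all samples. For Myh3 and Ncam1 the test on all samples gave adjusted p of 0.0845 and 0.139 in edgeR. Between control skin of week 4 and sham skin the difference was -0.96 on the log2 scale, without passing the test (adjusted p = 0.0825 in edgeR). Sham skin held 3.13, 3.16 and 2.58 CPM, and radiated skin of week 4 was above all 3, with a log2 fold change of 0.64 that did not pass (adjusted p = 0.0669 in edgeR).

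**Figure D2:**
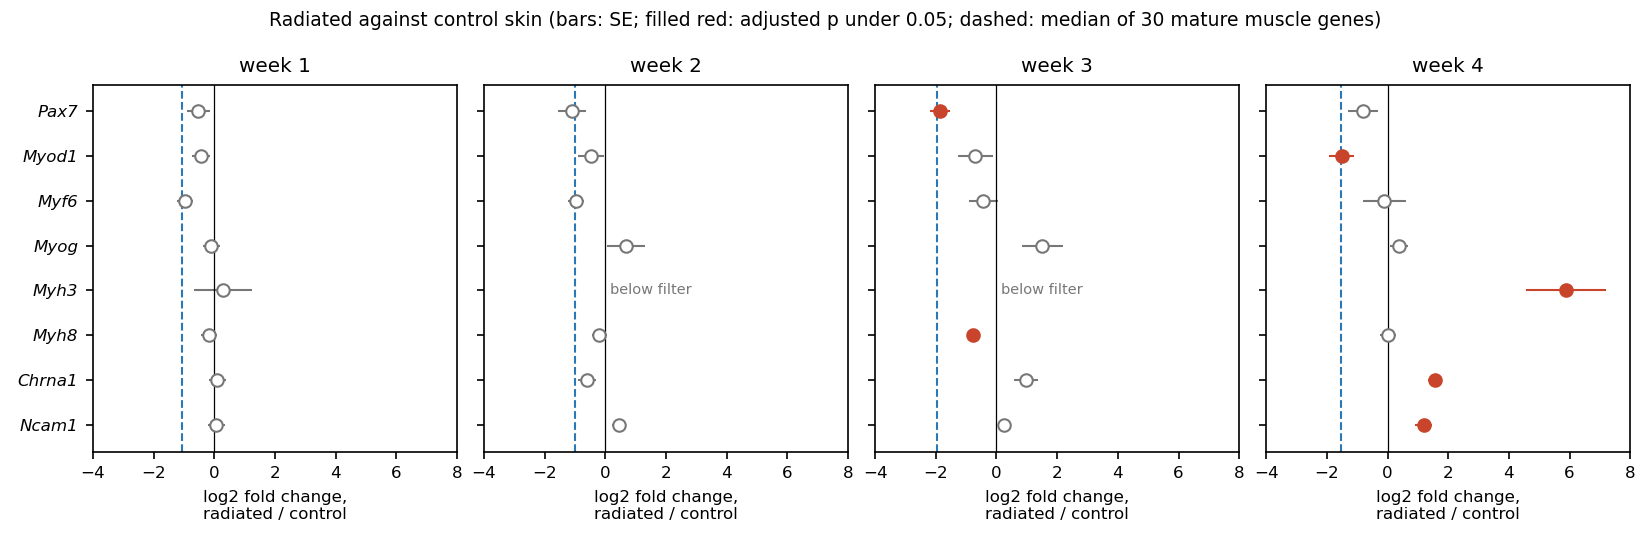
Log2 fold change of the members between radiated and control skin by week, with bars of 1 SE from edgeR, filled points for an adjusted p under 0.05 and a dashed line at the median of the 30 mature muscle genes. Pax7 and Myh8 in week 3 and Myod1 in week 4 are filled below 0, and Myh3, Ncam1 and Chrna1 in week 4 are filled above it.

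Ncam1 (ENSMUSG00000039542, chromosome 9, 49502136 to 49798925), an adhesion molecule, held 102, 66.5, 33.7 and 44.7 CPM in radiated skin of week 4 and 25.6, 28.7, 26.9 and 27.7 CPM in control skin. The radiated samples were widely spread while the control samples were nearly alike, and the groups did not overlap. The log2 fold change was 1.19 (edgeR SE 0.292, adjusted p = 0.00768), and 0.83 (adjusted p = 0.0229 in edgeR) without radiated replicate 1. That sample was the highest in both Ncam1 and Myh3. Against sham skin, with 24.4, 32.0 and 26.6 CPM, it was 1.20 (edgeR SE 0.348, adjusted p = 0.0346), and this did not pass without radiated replicate 1 or 2 or without any of the sham samples, with adjusted p up to 0.0935. In weeks 1, 2 and 3 the differences from control skin were 0.06, 0.46 and 0.24 on the log2 scale (adjusted p = 0.933, 0.413 and 0.375 in edgeR).

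Other cells of skin make Ncam1, among them Schwann cells and the dermal papilla. The 10 Schwann cell genes summed to 232 to 267 CPM in radiated and 383 to 457 CPM in control skin of week 4. Of them, 8 were lower and 0 higher, where 24.2% of all genes were lower and 24.2% higher. The 8 dermal papilla genes summed to 94.9 to 108.5 CPM in radiated and 42.7 to 62.3 CPM in control skin. Of these, 2 were higher and 2 lower, near the same shares of all genes. Crabp1 carried much of that sum (log2 fold change 1.91, adjusted p = 6.96e-05 in edgeR), Corin rose by 1.18 (adjusted p = 0.0166 in edgeR) and Rspo3 fell by 2.21 (adjusted p = 5.85e-05 in edgeR). The part of these cells in the Ncam1 level was not tested.

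Against sham skin, the members called in radiated skin were 0 of 7 in weeks 1, 2 and 3, where 1.75%, 5.06% and 18.2% of genes were called, and 2 of 8 in week 4, Myh3 and Ncam1, where 26.7% were. The eighth member was Myh3, which its radiated samples alone brought over the filter. At an unadjusted p under 0.05 the counts in weeks 1, 2 and 3 were 0, 3 and 2, where 16.6%, 23.6% and 33.7% of genes were at that level. DESeq2 called 0, 1 and 2 members there, and 4.82%, 9.52% and 18.6% of genes. Control skin differed from sham skin for 0, 1, 1 and 0 of 7 members in weeks 1 to 4, where 4.92%, 2.44%, 11.4% and 3.65% of genes were called. At an unadjusted p under 0.05 the counts in weeks 1 and 4 were 4 and 1, where 27.3% and 22% of genes were at that level. DESeq2 called 2 and 1 members in these weeks, and 11.7% and 7.37% of genes. The edgeR calls were Myf6 in week 2 and Pax7 in week 3, and leaving out 1 sample took the adjusted p as high as 0.162 and 0.123 in edgeR. The same 3 sham samples served in all of these comparisons, so the values are not independent of one another.

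Levels were then set against mature muscle within each kind of skin, 16 samples of 16 mice each, over 20 relations in all. In control skin, Myf6 followed the muscle score with Pearson r = 0.983 and Spearman rho = 0.950 (permutation p = 1e-05 for both, the smallest that 100000 resamples give, adjusted p = 2e-04), r = 0.899 without the 2 samples farthest from the median score, and r = 0.985 with the means of the weeks removed. In radiated skin it followed less tightly, with r = 0.652 and rho = 0.576 (permutation p = 0.0072 and 0.0217, adjusted p = 0.036 and 0.0866), r = 0.488 without the 2 farthest samples and 0.819 with week means removed. The scatter plot of levels on the muscle score shows this tight line in control skin.

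Myh8 in control skin gave r = 0.891 and rho = 0.579 (permutation p = 2.7e-04 and 0.0211, adjusted p = 0.0027 and 0.0866), and r = 0.644 without the 2 farthest samples. Pax7 in control skin gave r = 0.849 and rho = 0.518 (permutation p = 0.00194 and 0.0428, adjusted p = 0.0129 and 0.107), but r = 0.331 without the 2 farthest samples, so that relation rests on them. Chrna1 in control skin gave r = 0.564 and rho = 0.750 (permutation p = 0.0113 and 0.00143, adjusted p = 0.0454 and 0.0143), r = 0.746 without the 2 farthest samples, and r = -0.10 with week means removed, so it does not hold within weeks. In radiated skin Myh8 gave r = 0.568 and rho = 0.682 (permutation p = 0.0228 and 0.00483, adjusted p = 0.0571 and 0.0322), and r = 0.487 without the 2 farthest samples. Pax7 there gave r = 0.579 and rho = 0.471 (permutation p = 0.0193 and 0.0674, adjusted p = 0.0551 and 0.123). Chrna1, Ncam1 and Myh3 had negative values there, r = -0.385, -0.43 and -0.44 (permutation p = 0.143, 0.0963 and 0.088, adjusted p = 0.19, 0.175 and 0.175) and rho = -0.476, -0.418 and -0.45 (permutation p = 0.0652, 0.108 and 0.0829, adjusted p = 0.123, 0.144 and 0.135). With week means removed their r was 0.448, 0.436 and 0.078. By Pearson r, 4 members passed in control skin and 1, Myf6, in radiated skin, and with week means removed it was Myf6 alone in each. By Spearman rho, Myf6 and Chrna1 passed in control skin and Myh8 in radiated skin. The same correlations are not given for all genes, so these counts have no share of genes to be read against.

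**Figure D3:**
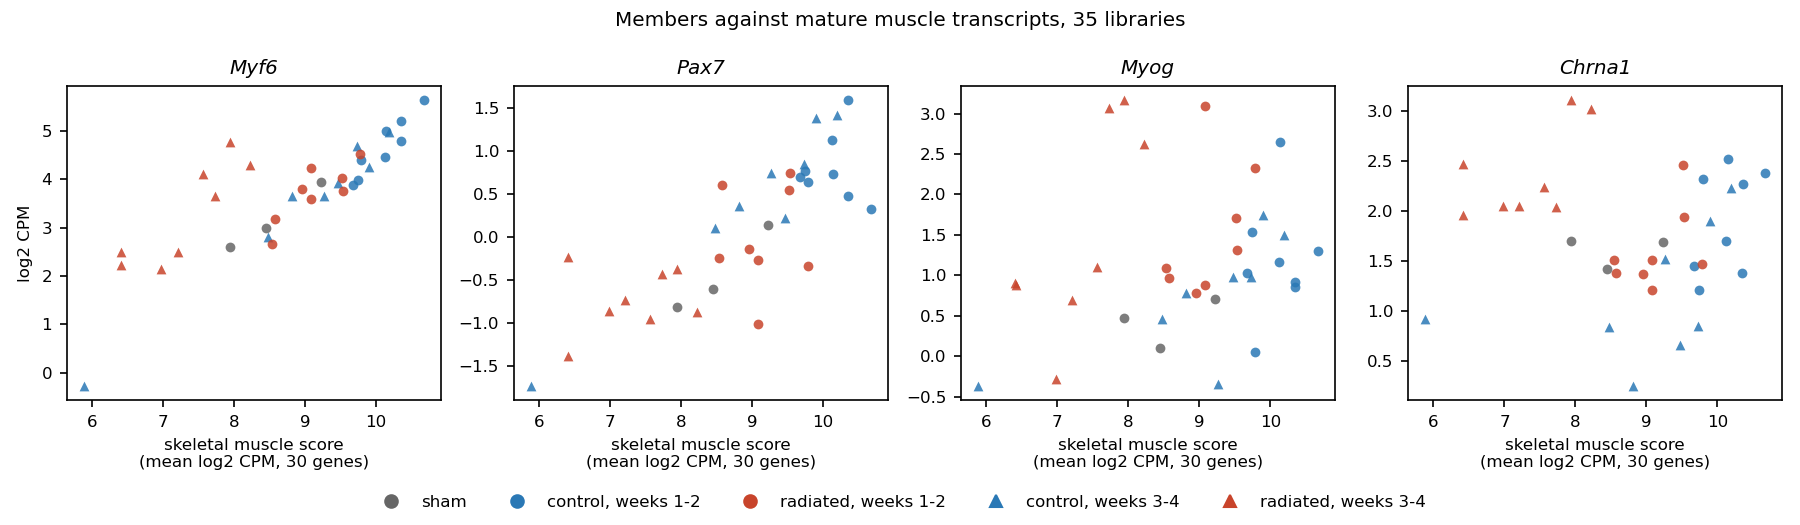
Log2 CPM of members against the skeletal muscle score, the mean log2 CPM of 30 mature muscle genes, for Myf6, Pax7, Myog and Chrna1. Each point is 1 of the 35 samples, coloured by kind of skin, with triangles for weeks 3 and 4. Myf6 lies on a narrow line in control skin (r = 0.983), and radiated samples of weeks 3 and 4 lie to the left of it.

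A fit of the 32 radiated and control samples with the muscle score as a covariate asked how the members differed at equal muscle score. In it, Myf6 rose with the score by 1.28 (SE 0.119) on the log2 scale per unit of score (adjusted p = 1.02e-08 in edgeR), the 1 member of 8 called, where 2.5% of 20152 genes were. At equal score, 0 of 8 members differed in week 1, where 0.00992% of genes were called, and 0 of 8 in week 2, where 1.77% were. In week 3, 3 of 8 members were higher and 0 lower, where 7.36% of genes were higher and 7.58% lower, 14.9% in all. They were Myf6 by 2.03 (edgeR SE 0.329, adjusted p = 3.6e-04), Myog by 2.46 (edgeR SE 0.717, adjusted p = 0.0207) and Chrna1 by 1.12 (edgeR SE 0.378, adjusted p = 0.0451). In week 4, 4 of 8 were higher and 0 lower, where 12.9% of genes were higher and 13.6% lower, 26.5% in all. They were Myf6 by 1.99 (SE 0.305), Myh3 by 6.78 (SE 1.69), Ncam1 by 1.29 (SE 0.313) and Chrna1 by 1.65 (SE 0.334), with adjusted p of 2.17e-05, 0.00336, 0.0026 and 4.88e-04 in edgeR.

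The falls of Pax7 and Myh8 in week 3 and of Myod1 in week 4 were not called at equal score. Pax7 in week 3 was at -0.84 (adjusted p = 0.331 in edgeR), Myh8 in week 3 was at -0.18 (adjusted p = 0.757 in edgeR), and Myod1 in week 4 was at -0.61 (adjusted p = 0.409 in edgeR). Without the covariate, Myf6 was at -0.43 and -0.10 in weeks 3 and 4, so its direction turned. Scores of radiated and control skin did not overlap in weeks 1, 2 and 3, with 6.98 to 8.22 against 9.26 to 10.19 in week 3. In week 4 the radiated scores ran from 6.41 to 7.56, and the control scores were 5.88 in replicate 1 and 8.48 to 9.47 in the others, so that no control sample lay within the radiated range. Differences at equal score therefore rest on a straight line between the groups in every week.

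The same question was asked without a model, by subtracting the muscle score from the log2 CPM of each member in each sample. Of 40 such comparisons, 10 members in 4 weeks, 0 had an adjusted p under 0.05, and the lowest adjusted p, 0.143, belongs to an exact permutation p of 0.0286, the smallest that 4 against 4 allow. In week 1, all 4 radiated samples lay above all 4 control samples for Chrna1, with a difference in means of 1.11, and for Ncam1, with 0.98 on the log2 scale. In week 2 no member was so separated. In week 3 it was so for Myog, with a difference in means of 3.23, for Chrna1, with 2.98, for Ncam1, with 2.28, and for Myf6, with 1.38 on the log2 scale. In week 4 it was so for Myh3, with 5.23, and Myf6, with 1.57, while Ncam1 at 2.32 and Chrna1 at 2.77 overlapped, the control samples being spread by the sample poor in muscle. Pax7 differed by 0.33 in week 3 and 0.70 in week 4 with overlap, and Myod1 in week 4 by -0.003. On this scale a transcript made outside muscle also moves up when muscle RNA falls. In weeks 1 to 3, where the scores did not overlap, a gene with the same CPM in every sample would also separate. The share of all genes so separated is not given here, so the separations are not read as particular to the members.

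**Figure D4:**
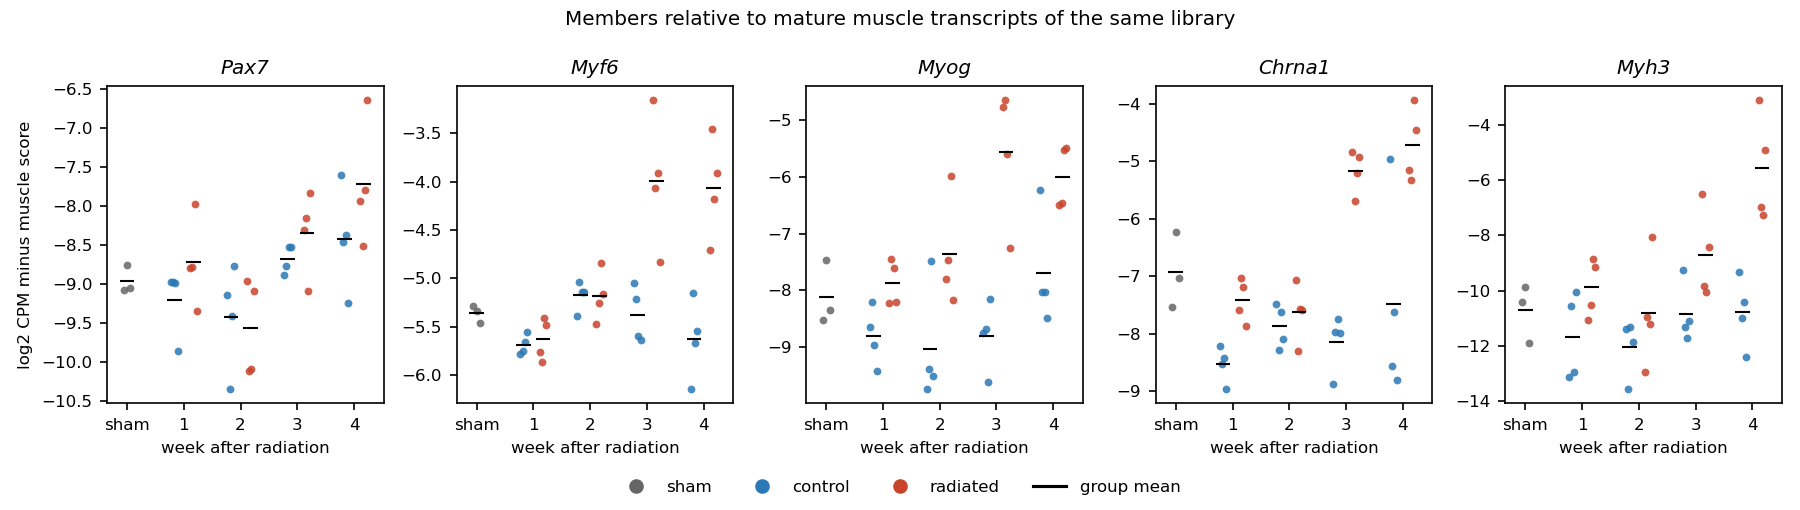
Pax7, Myf6, Myog, Chrna1 and Myh3 relative to mature muscle, as log2 CPM minus the skeletal muscle score (vertical axis), in sham, control and radiated skin by week, with 1 point per sample and black bars for group means. The radiated points of Myog in week 3 and of Myh3 in week 4 lie above all control points of that week, and those of Pax7 overlap the control points in every week.

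Lists of related genes were read beside the members by counts, for radiated against control skin in weeks 3 and 4. The shares of all genes to read them against are 27.2% in week 3, 13.6% higher and 13.6% lower, and 48.4% in week 4, 24.2% higher and 24.2% lower. In weeks 1 and 2, 0 genes of any list passed in edgeR, and the mature muscle list had 25 of 30 genes at an unadjusted p under 0.05 in each. Of its 30 genes, 26 were lower and 0 higher in week 3, with a median log2 fold change of -1.97, where all genes had 0.08, and 13 were lower and 1 higher in week 4, with a median of -1.54, where all genes had 0.02. Without control replicate 1 of week 4, 27 were lower and 0 higher, with a median of -1.87, where 47.1% of all genes were called, 24.4% higher and 22.6% lower. The largest falls were those of Pvalb, a calcium buffer of fast fibres (-4.54, SE 0.924, adjusted p = 0.00275 in edgeR), the fast alpha-actinin Actn3 (-4.22, SE 0.851, adjusted p = 0.00263 in edgeR) and Myh4 (-4.02, SE 0.95, adjusted p = 0.00626 in edgeR) in week 4.

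Of 12 further satellite cell genes tested, 3 were higher and 1 lower in week 3, and 4 were higher and 4 lower in week 4, with medians of -0.13 and -0.33. The largest changes among the genes called in week 4 were those of Vcam1, an adhesion molecule (3.81, SE 0.268, adjusted p = 5.9e-06 in edgeR), Heyl, a Notch target (1.81, SE 0.217, adjusted p = 1.12e-04 in edgeR), the receptor Fgfr4 (-1.35, SE 0.325, adjusted p = 0.00692 in edgeR) and Itga7, a laminin receptor of fibres (1.19, SE 0.121, adjusted p = 4.29e-05 in edgeR). Vessels also make Vcam1 and Heyl. Of the more restricted satellite cell genes, Cdh15 and Chrdl2 were at -1.23 and -0.34 in week 4 (edgeR adjusted p = 0.135 and 0.493). Calcr went the other way at low counts, with 2 to 13 in radiated skin of week 4 and 0 in all 4 control samples. Sham skin held 6 to 7 counts of it.

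Among 14 muscle regulators, 1 was higher and 8 lower in week 3 and 1 was higher and 3 lower in week 4, with medians of -0.92 and -0.67. Without control replicate 1 of week 4, 1 was higher and 7 were lower in that week. Mstn, the secreted brake on muscle growth, fell most, by 5.09 in week 3 (edgeR SE 0.495, adjusted p = 7.3e-04) and by 5.07 in week 4 (edgeR SE 0.814, adjusted p = 6.78e-04). Ankrd2, a stretch-responsive protein of the sarcomere, was the one that rose, by 2.75 and 1.54 (adjusted p = 0.0209 and 0.0237 in edgeR).

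Of 15 developmental isoforms and fusion genes, 11 were tested in each of these weeks, 1 was higher and 3 lower in week 3, and 2 were higher and 1 lower in week 4, with medians of -0.18 and -0.15. The slow troponins, which young fibres also carry, were the ones that rose: Tnni1 by 2.21 (edgeR SE 0.475, adjusted p = 0.00916) and 1.45 (edgeR SE 0.322, adjusted p = 0.00443) in weeks 3 and 4, and Tnnt1 by 2.79 (edgeR SE 0.62, adjusted p = 0.00448) in week 4. Those that fell were Cdkn1c, an inhibitor of the cell cycle, by 1.78 (edgeR SE 0.356, adjusted p = 0.00686), and the growth factor Igf2, by 1.10 (edgeR SE 0.33, adjusted p = 0.0341), in week 3, and the adhesion molecule Cdh2, by 0.76 and 0.51 in weeks 3 and 4 (edgeR adjusted p = 0.0389 and 0.0121). Chrng and Chrnd, the embryonic and the delta subunit of the receptor to which Chrna1 belongs, were at 1.43 and 0.67 in week 4 (edgeR adjusted p = 0.167 and 0.174), and Chrng had at most 17 counts in any sample.

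Of the genes of the neuromuscular junction and of denervated fibres, 2 of 15 were higher and 3 lower in week 3, and 3 of 16 were higher and 3 lower in week 4, with medians of -0.28 and -0.07. Without control replicate 1 of week 4, 3 were higher and 5 lower in that week. Ankrd1 rose by 5.96 (edgeR SE 1.06, adjusted p = 0.00423) and 3.91 (edgeR SE 0.455, adjusted p = 9.44e-05), and Runx1, a factor induced in denervated muscle and also made in skin epithelium and blood cells, rose by 1.34 and 2.28 (adjusted p = 0.00116 and 4.37e-06 in edgeR). Ache, the acetylcholinesterase, fell by 1.62 and 2.44 (adjusted p = 0.00175 and 6.05e-05 in edgeR), and Lrp4, the agrin receptor that is also made in hair follicles, fell by 1.31 and 2.44 (adjusted p = 0.0321 and 2.23e-05 in edgeR). Musk, the kinase of the junction, was at 0.67 in week 4 (adjusted p = 0.0995 in edgeR).

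Of 10 genes of muscle wasting, 4 were lower and 0 higher in week 3 and 5 were lower and 0 higher in week 4, with 27.2% and 48.4% of all genes called in either direction. Fbxo32 (atrogin), a ubiquitin ligase of atrophying fibres, fell by 1.91 and 1.87 (adjusted p = 0.00599 and 0.00144 in edgeR), and Klf15 by 1.38 and 2.37 (adjusted p = 0.00636 and 1.08e-04 in edgeR). Trim63, the other ligase of that kind, was at -1.04 and -0.98 (adjusted p = 0.196 and 0.228 in edgeR). Of 7 smooth muscle genes, which would show muscle of vessels and of hair follicles, 3 and 4 were lower in weeks 3 and 4 and 0 were higher. Of 6 keratinocyte genes, 1 was higher and 1 lower in week 3, and 1 was higher and 4 lower in week 4.

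The genes whose log2 CPM was most like that of a member over the 35 samples, among 16405 other genes that averaged 1 CPM or more (16406 for Myh3, which itself averaged less), are given as a description. Myf6 was nearest to Klhl41 (Pearson r = 0.94), Nrap (0.94) and Gys1 (0.93), and Pax7 to Fbxo40 (0.84), Prkab2 (0.83) and Xirp2 (0.83), of which Klhl41, Nrap, Fbxo40 and Xirp2 are sarcomere or fibre genes. Myh8 was nearest to Rcan2 (0.83), Ckmt2 (0.82) and Cap2 (0.81), and Myod1 to Ppp1r3c (0.75), Popdc3 (0.66) and Myadml2 (0.64). Myog was nearest to the small heat shock genes Cryab (0.81) and Hspb7 (0.77) and to Lmcd1 (0.77). Chrna1 was nearest to Vash2, Slc16a3 and Dysf (all 0.73). Ncam1 was nearest to Cdh11 (0.87), Olfml3 (0.87) and Clstn2 (0.84), and Myh3 to Tnn (0.71), Serpine2 (0.70) and Nfasc (0.69), which are matrix, adhesion and secreted proteins of connective tissue or nerve. The points of these correlations share the groups of the study, so the values describe likeness of pattern only.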

How the data were processed

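RNA of 35 mouse skin samples had been sequenced in bulk. Per the submitters' processing notes, reads were trimmed with Trim Galore 0.6.7 and quantified with kallisto 0.46.2 against mm10, and per the labels' protocols DESeq2 was also used. The authors deposited estimated counts per gene, not scaled between samples, of which 29.5% to 32.5% per sample were not whole. They were rounded here and converted to CPM and log2 CPM on TMM-scaled libraries (trimmed mean of M values, prior count 2), over 19813 genes that pass filterByExpr. These CPM and log2 CPM values were computed from the deposited counts.

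Groups of a comparison were fitted on their own in edgeR 4.0.16 (R 4.3.3) with the quasi-likelihood F test and Benjamini-Hochberg adjustment over all tested genes. The SE is the log2 fold change divided by the square root of F. The fits were tested on simulated data. Single values were compared with two-sided exact permutation tests. Alternatives were the Wald test of DESeq2 1.42.0 (its likelihood ratio test for the interaction), total-count and median-ratio scaling, no filter, a prior count of 0.5, a single fit of all samples, a muscle score covariate, a replicate block and leaving out each sample. PCR duplicates cannot be told from separate molecules, so the floor of 3 counts covers counting error only. No 2 of the 595 pairs of libraries were identical.

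The 10 members and the gene lists were chosen with earlier results of these data known. Named genes are the members, up to 4 genes of a list with the largest change past the threshold in each comparison of radiated with control skin, for each member averaging at least 0.5 CPM the 3 genes, of those averaging at least 1 CPM, with the highest Pearson correlation, and Myh4, Ckm and Acta1. Calcr, Mymx, Cdh15, Chrdl2, Chrng, Chrnd, Musk, Trim63 and Myh2 were named outside this rule, after their values were seen. Of 139 listed genes, 138 were matched. The result of 1 gene of the lists is not reported here. Gene positions and exon lengths are from GENCODE M21 on GRCm38.

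The pairing of radiated and control skin comes from the count of 35 samples from 19 mice and the shared week and number. Deviations of same-numbered samples from their group means had mean correlations over 19813 genes of 0.0706, 0.173, 0.0525 and -0.0198 in weeks 1 to 4, against -0.0237, -0.0568, -0.0168 and 0.00738 for other numbers.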

Additional observations from a re-analysis of the deposited data

Results flagged for a closer look

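In groups of 4 samples, 12 of 79 tested had a highest or lowest sample whose gap to the nearest other was a larger part of the whole range than Dixon's 95% critical value allows, and chance alone gives about 1 in 20. In Myh3 these were replicate 1 of radiated skin at 2.61 CPM in week 3 and at 17.1 CPM in week 4, where it was also the highest in Ncam1. Myf6 stood at 17.2 CPM in replicate 2 of radiated skin in week 4. Myod1 stood at 1.01 CPM in replicate 1 of control skin in week 4, the sample poorest in mature muscle. Ncam1 stood at 28.2 CPM in replicate 1 of control skin in week 2 and at 36.4 CPM in replicate 3 of radiated skin in week 3. Chrna1 stood at 5.39 CPM in replicate 1 of radiated skin in week 2. The others were samples of few counts: Myf5 at 0.334 CPM in replicate 3 of control skin in week 1 and 0.427 CPM in replicate 3 of control skin in week 4, and Mymk at 0.262 CPM in replicate 4 of radiated skin in week 1, 0.265 CPM in replicate 1 of radiated skin in week 2 and 0.491 CPM in replicate 2 of control skin in week 3.

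The radiated-minus-control difference of Chrna1 was not the same in the 4 weeks (adjusted p = 0.00195 in edgeR's test of the interaction). It was -0.61 in week 2 and 1.56 in week 4 on the log2 scale.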

How the results depend on the processing

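Counts of members called between radiated and control skin with the DESeq2 Wald test were 1 in week 1 and 1 in week 2, where it called 1.66% and 2.81% of all genes. With the replicate block the count was 1 in week 2 (3.42% of all genes), and a single fit of all samples gave 4 in week 3 (Pax7, Myog, Myh8 and Chrna1, with 33.9% of all genes). Leaving out 1 sample gave 1 to 3 members in week 3 and 4 to 5 in week 4. The 5 came without control replicate 1 of week 4, where 47.1% of all genes were called. The shares of all genes in the other fits of this kind are not given here. For the interaction, the DESeq2 likelihood ratio test, chosen after seeing the data, called 2 members (Myh3 and Chrna1) and 13.9% of all genes. Leaving out a number in edgeR gave 0 members without number 3, where 960 of 19334 genes were called. Without any other number it gave 1 member, with up to 1782 of 19364 genes called. The Wald test of single interaction terms was not run.

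Against sham skin, radiated samples gave 1 member in week 2 and 2 in week 3 both in DESeq2 (9.52% and 18.6% of all genes) and in the single fit (16.4% and 32.3%). Replicate numbers of sham and other mice share no animal, and with the replicate block 2 members and 15.9% of all genes were called in week 3, while control against sham skin gave 0 in weeks 2 and 3 (0.00515% and 2.76%). Leaving out 1 sample gave 0 to 1 in week 2 and 0 to 2 in weeks 3 and 4. For control against sham skin, DESeq2 called 2, 3, 3 and 1 members in weeks 1 to 4 (11.7%, 7.71%, 14% and 7.37% of all genes), the single fit called 0 in week 2 (7.87%) and total-count scaling called 0 in week 3 (14.1%). Leaving out 1 sample gave 0 to 2 in week 1, 0 to 2 in week 2 and 0 to 3 in week 3. The shares of all genes in these leave-out fits, and in those of radiated against sham skin, are not given here. The count of members that followed the muscle score by Pearson r in control skin was 1 with week means removed and 2 without the 2 farthest samples, and 2 to 3 without a replicate number. In radiated skin it was 0 without the 2 farthest samples and 0 to 3 without a replicate number. No share of all genes is given for these relations. Besides Myf6 in week 2, the replicate block changed no call of a member between radiated and control skin.

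Between radiated and control skin, these log2 fold changes turned in direction. With the muscle covariate, Myf6 gave 0.36, 0.27, 2.03 and 1.99 in weeks 1 to 4, Myod1 gave 0.19, 0.065 and 0.47 in weeks 1 to 3, Myh8 gave 0.12 and 0.10 in weeks 1 and 2, Myog 0.38 in week 1 and Pax7 0.038 in week 4. With the replicate block, Myf6 gave 0.15 in week 4 and Ncam1 -0.046 in week 1. With total-count scaling, Myf6 gave 0.017 in week 4 and Myog 0.029 in week 1. Leaving out 1 sample gave ranges of -0.077 to 0.20 for Chrna1, -0.12 to 1.53 for Myh3, -0.35 to 0.048 for Myh8, -0.20 to 0.038 for Myog and -0.10 to 0.31 for Ncam1 in week 1, and of -0.75 to 0.31 for Myf6 and -0.16 to 0.20 for Myh8 in week 4. The cause was not tested. Total-count scaling moved the median of all genes from 0.05 to 0.18 in week 1 and from 0.08 to 0.32 in week 3. Depth limits Myf5 and Mymk, which stayed within 12 counts, and with 4 against 4 samples the exact test cannot go below 0.0286.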
